A study of Mus musculus with 2 samples.

Results

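Erythropoietin receptor signalling genes were followed through the cell types of the mouse fetal liver at the embryonic stage E12.5. The set held 9 genes, chosen by symbol among the 27998 genes of the count matrices: the ligand gene *Epo*, the receptor gene *Epor*, the kinase gene *Jak2*, the transcription factor genes *Stat5a* and *Stat5b*, and the genes *Cish*, *Socs2*, *Socs3* and *Pim1*, whose transcription STAT5 is known to drive. Of these 9, 8 had UMIs, single captured transcript molecules, in each library, and *Epo* had none. The cells came from 1 wild-type liver of strain C57BL/6, dissociated, cleared of dead cells and doublets by sorting, and processed as 2 technical replicate libraries. No genotype or treatment was compared, so no test between animals was possible, and every interval given covers counting error only.

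Erythropoietin is the hormone that keeps erythroid progenitors alive and drives them to divide and mature. Its receptor has no enzyme activity of its own: it carries the kinase JAK2, which phosphorylates the receptor's tail and the STAT5 proteins that dock there. Phosphorylated STAT5 enters the nucleus and switches on target genes, among them the CIS and SOCS proteins, which bind the receptor or the kinase and dampen the signal, and PIM1, a kinase that protects cells from death.

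The cell groups were the clusters and cell types named by the study, which were built from these same counts. They were HSPC (hematopoietic stem and progenitor cells, 421 cells), Ery (erythroid progenitors of the BFU-E kind, 1750 cells, subclusters Ery 1 and Ery 2), Eryb (erythroblasts, 7432 cells, subclusters Ery 3 to Ery 6), EryP (primitive erythroblasts, 288 cells), Mk (megakaryocytes, 135 cells), G (granulocytes, 287 cells), Mo/KC (monocytes and Kupffer cells, 114 cells), Hepa (hepatoblasts, 64 cells) and EC (endothelial cells, 46 cells). Library 1 held 5480 cells and 51969226 UMIs, and library 2 held 5057 cells and 62738015 UMIs. They shared 31 cell barcodes. Of 27 markers of these types, with *Klf1* listed for both Ery and Eryb, 22 were highest in their own type in each library. For Ery it was 0 of its 3 markers (*Klf1*, *Gata1* and *Car1*), and for HSPC and Eryb 2 of 3 each. The exceptions were *Myb*, highest in G, *Gata1*, highest in Mk, and *Klf1* and *Car1*, which were highest in Ery in 1 library and in Eryb in the other.

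The share of UMIs from the 4 adult globin genes differed widely between early and late erythroid cells and enters every level given per all UMIs. It was 1.02% in Ery 1 and 57.0% in Ery 6 of library 1, and 2.32% and 77.9% in library 2. The median cell held 26146 UMIs in Ery 1 and 4378 in Ery 6 of library 1, and 25977 and 7882.5 in library 2. Levels are therefore given as UMIs per 1000000 of all UMIs of the population (CPM) and, where the scale matters, also per 1000000 of the UMIs left after removing 7 globin genes (non-globin CPM), or as UMIs per cell.

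The DNA at the RefSeq start sites of 4 members is shown, because *Cish*, *Socs3* and *Pim1* are known targets of STAT5 and *Epor* is a known target of GATA1. RefSeq windows of 300 bases in build GRCm38.p6, from 250 bases before to 50 after the start, were matched for 8 of the 9 members. Both strands were searched for the STAT-type motif TTCNNNGAA and for the GATA motif AGATAA, which do not overlap in these stretches. Capitals mark the matches, and each sequence is read from 5′ to 3′ on the strand of the gene. The *Epor* stretch is chr9:21963577-21963826 (minus strand), that of *Cish* chr9:107296409-107296678 (plus strand, ending with the first 20 transcribed bases), that of *Socs3* chr11:117969367-117969616 (minus strand) and that of *Pim1* chr17:29490535-29490784 (plus strand).
Epor: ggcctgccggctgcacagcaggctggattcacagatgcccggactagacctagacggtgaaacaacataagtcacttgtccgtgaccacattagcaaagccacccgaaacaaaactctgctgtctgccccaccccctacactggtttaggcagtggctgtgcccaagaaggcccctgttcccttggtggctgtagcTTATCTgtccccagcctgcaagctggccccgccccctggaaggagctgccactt
Cish: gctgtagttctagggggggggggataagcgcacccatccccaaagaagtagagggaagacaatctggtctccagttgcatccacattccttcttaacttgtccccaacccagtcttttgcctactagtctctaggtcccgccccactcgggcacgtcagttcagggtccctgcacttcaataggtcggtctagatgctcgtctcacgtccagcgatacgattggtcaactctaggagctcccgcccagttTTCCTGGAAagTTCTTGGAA
Socs3: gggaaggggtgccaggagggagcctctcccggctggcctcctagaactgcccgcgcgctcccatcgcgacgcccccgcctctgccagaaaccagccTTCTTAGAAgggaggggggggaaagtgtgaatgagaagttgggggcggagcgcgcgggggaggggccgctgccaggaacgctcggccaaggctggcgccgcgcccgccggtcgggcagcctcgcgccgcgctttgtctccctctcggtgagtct
Pim1: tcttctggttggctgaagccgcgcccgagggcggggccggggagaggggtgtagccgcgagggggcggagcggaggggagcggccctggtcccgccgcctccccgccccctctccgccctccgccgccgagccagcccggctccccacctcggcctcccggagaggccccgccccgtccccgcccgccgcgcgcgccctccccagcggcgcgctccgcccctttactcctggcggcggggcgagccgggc
The *Cish* stretch held 2 STAT-type matches, at bases 1 to 9 and 12 to 20 counted from the start. The *Socs3* stretch held 1 match that began 154 bases before the start, and the *Pim1* stretch held none. Of 32851 windows of all genes, 8.30% held a STAT-type match and 0.457% held at least 2. The *Epor* stretch held 1 GATA match, on the opposite strand, that began 54 bases before the start, and 11.2% of all windows held a match. A match is a description of the letters only, and binding was not measured here.

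No cell held an *Epo* UMI. The gene had 0 UMIs in the 10537 kept cells, which allows a level of up to 0.0262 CPM over the liver and captured UMIs in at most 0.0285% of cells. This sets no limit on the share of cells that express the gene. In Hepa, the parenchymal cells of the liver and the cell type known for fetal *Epo* production, 0 UMIs in 64 cells allowed up to 2.07 CPM and up to 4.69% of cells with a UMI. No *Epo* UMI was found among all 417824 barcodes of library 1 or the 407870 of library 2 either. The gene lies at chr5:137483020-137533242 (minus strand, GRCm38), and no other annotated gene overlaps its last exon. At this depth *Epo* was not detectable, which is not the same as absent from the 64 hepatoblasts.

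*Epor* was high from Ery 1 to Ery 5 and in Mk, and low in HSPC, G and Mo/KC. In HSPC it stood at 8.99 CPM in library 1 (95% Poisson interval 6.11 to 12.8) and 8.0 CPM in library 2 (5.18 to 11.8). In Ery it stood at 153 CPM (147 to 158) and 153 CPM (147 to 159). Of the members, *Epor* had the largest ratio between HSPC and Ery: Ery exceeded HSPC 17.0-fold in library 1 (11.9 to 25.0) and 19.1-fold in library 2 (12.9 to 29.6). In Eryb the libraries parted in CPM: library 1 held 174 CPM (169 to 179), and library 2 held less, 122 CPM (118 to 125). Globin made up 36.7% and 59.2% of their Eryb UMIs. Without globin UMIs library 2 was not lower, with 275 non-globin CPM (267 to 283) in library 1 and 298 (289 to 307) in library 2. Per cell it was 1.11 and 1.19 UMIs.

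Across the 13 populations, counting Ery 1 to Ery 6 on their own, the order of *Epor* levels differed between the libraries at its top. In library 1 Ery 4 was highest with 216 CPM (206 to 227), followed by Ery 3, Ery 5 and Ery 2 at 199, 189 and 178 CPM, each interval overlapping that of its neighbour. In library 2 Ery 3 was highest with 182 CPM (173 to 192), Ery 2 overlapped it at 178 CPM, and Ery 4 lay clear of both at 150 CPM. Ery 1 held 129 CPM in each library. At the bottom the order was the same: Mo/KC at 11.8 and 13.6 CPM, HSPC, and then G at 4.76 and 6.86 CPM, with intervals that overlapped from each to the next.

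**Figure D1:**
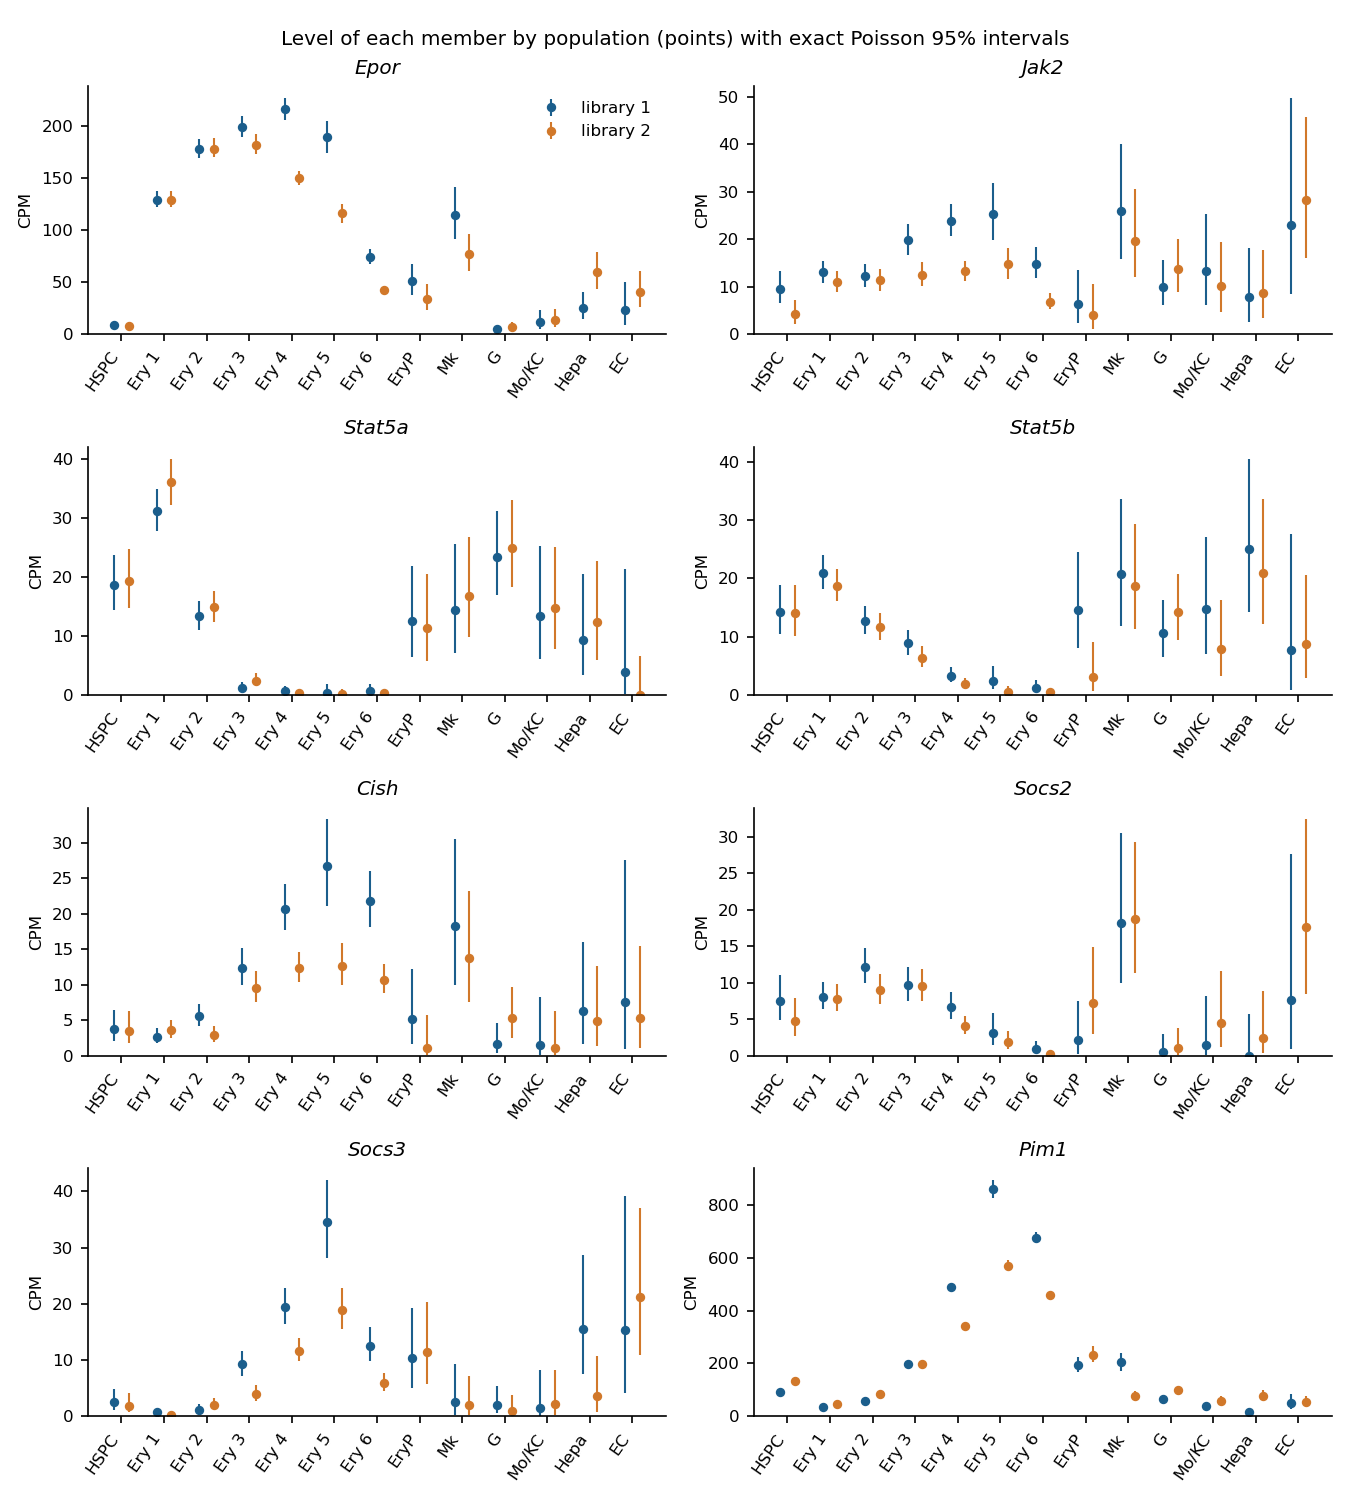
Level of the 8 members with UMIs, in CPM on linear axes, in 13 populations of each library, as points with exact Poisson 95% intervals. *Epor* is high from Ery 1 to Ery 5 in both libraries, *Stat5a* is highest in Ery 1 and below 1 CPM in Ery 4 to Ery 6, and *Pim1* is highest in Ery 5, as is *Socs3* in library 1, while in library 2 *Socs3* is at 21.2 CPM in EC and 18.9 CPM in Ery 5.

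Whether *Epor* was higher or lower in late erythroblasts depended on the scale. In CPM, Ery 6 held 74.1 CPM in library 1 and 42.2 CPM in library 2, which is 1.74-fold (1.56 to 1.95) and 3.06-fold (2.74 to 3.43) below Ery 1. Without globin UMIs, the level was 131 and 132 non-globin CPM in Ery 1, 387 and 435 in Ery 5, and 177 and 196 in Ery 6. On that scale Ery 6 was no longer below Ery 1, and the libraries, which differ in globin share, lay closer together. Counted per cell, *Epor* was lower at each later stage in library 1, from 3.41 UMIs in Ery 1 to 1.11 in Ery 5 and 0.346 in Ery 6. In library 2 it went from 3.34 in Ery 1 and 3.38 in Ery 2 to 0.355 in Ery 6. Ery 2 of library 1 held 2.93 per cell, and 155 of its 557 cells had fewer than 3600 UMIs. No Ery 2 cell of library 2 had so few.

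**Figure D2:**
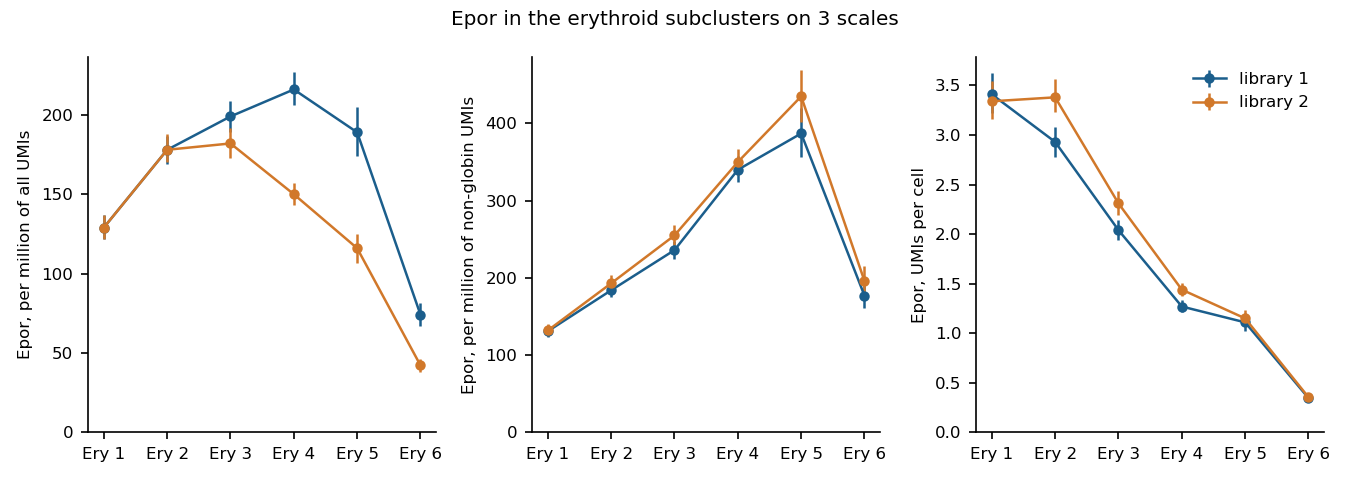
*Epor* in the 6 erythroid subclusters, in CPM (left), in non-globin CPM (middle) and as UMIs per cell (right), with 95% counting intervals. The first scale peaks in Ery 4 or Ery 3, the middle scale peaks in Ery 5 in both libraries, and UMIs per cell are lowest in Ery 6.

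At equal depth, globin UMIs included, *Epor* transcripts were spread over many erythroid cells rather than held by a few. With each cell thinned to 3600 UMIs, 34.1% of Ery 1 cells of library 1 (95% Clopper-Pearson interval 29.3 to 39.2) and 30.4% of library 2 (25.6 to 35.4) had an *Epor* UMI. The share was 51.6% and 46.6% in Ery 3, and 21.3% and 13.9% in Ery 6. Globin made up 58.1% and 78.5% of all UMIs in Ery 6, against 1.07% and 2.37% in Ery 1, so fewer non-globin UMIs were left there. Before thinning, the share with an *Epor* UMI was 84.3% and 85.2% in Ery 1. It was 27.1% and 26.7% in Ery 6, where cells held far fewer UMIs. In G, which is not known to use the receptor, 2.21% and 3.08% of thinned cells had an *Epor* UMI, and in HSPC 1.90% and 4.33%, with intervals that overlapped between HSPC and G in each library. At 7200 UMIs the share was 7.66% and 4.32% in HSPC and 4.0% and 4.67% in G, so HSPC did not lie above G in both libraries. In Mk, 30.4% and 23.2% of cells thinned to 3600 UMIs had an *Epor* UMI. Thinning left out the cells of library 1 with fewer UMIs, among them 155 of Ery 2, 186 of Ery 4, 237 of Ery 6 and 33 of the 79 Mk cells. It left out none of library 2. The lowest kept cell held 504 UMIs in library 1 and 4387 in library 2.

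Free RNA, measured in barcodes with 1 to 50 UMIs, held *Epor* at 96.2 CPM in library 1 (83.0 to 111) and 119 CPM in library 2 (105 to 136). The level in G was 4.94% and 5.74% of that. Outside the definitive erythroid cells, the largest *Epor* level in CPM was in Mk, with 114 CPM (91.7 to 141) and 76.9 CPM (60.8 to 96.0), from 88 and 78 UMIs. Without globin UMIs EryP stood above Mk, at 219 and 196 against 116 and 81.5 non-globin CPM. The 4 erythroid markers *Klf1*, *Gata1*, *Car1* and *Rhd* summed to 430 and 481 CPM in Mk, against 136 and 126 CPM in G and 878 and 832 CPM in Ery 1. Of that sum in Mk, *Gata1*, which megakaryocytes are known to use as well, made up 313 and 187 CPM. *Klf1*, an erythroid transcription factor gene, stood at 41.6 and 113 CPM in Mk and at 37.5 and 40.1 CPM in G, so it was close to the level of G in library 1 and above it in library 2. The part of erythroid RNA in the *Epor* level of Mk was not tested.

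Hepa and EC held less *Epor* than Mk, although in library 2 their intervals overlapped that of Mk. Hepa had 25.0 CPM in library 1 (14.3 to 40.6) and 59.3 CPM in library 2 (43.7 to 78.6). EC had 22.9 CPM (8.40 to 49.8) and 40.6 CPM (25.7 to 60.9). In library 2 Hepa ranked above Ery 6 in CPM, at 42.2 CPM (38.2 to 46.4), with intervals that overlapped. Without globin UMIs the order was the reverse. Hepa of library 2 stood at 62.3 non-globin CPM (45.9 to 82.6) and Ery 6 at 196 (178 to 216). The same 4 erythroid markers summed to 333 and 449 CPM in Hepa and to 225 and 161 CPM in EC, so they were above their sum in G in both libraries, by more in Hepa than in EC. Their part in the *Epor* level of these cells was not tested. EryP, the primitive erythroblasts that the yolk sac makes, held 51.1 CPM (37.8 to 67.6) and 34.2 CPM (23.5 to 48.0), with 76.7% and 82.5% of their UMIs from the 7 globin genes. Without globin they stood at 219 and 196 non-globin CPM, close to the Ery 6 values on that scale.

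*Jak2*, the gene of the kinase that the receptor carries, varied less than *Epor* between HSPC and Ery. It had 9.57 CPM (6.59 to 13.4) in HSPC of library 1 and 4.16 CPM (2.22 to 7.11) in library 2, and 12.6 CPM (11.1 to 14.3) and 11.1 CPM (9.58 to 12.7) in Ery. The ratio of Ery to HSPC was 1.32 (0.912 to 1.96) in library 1, an interval that includes 1, and 2.66 (1.52 to 5.08) in library 2. Within the erythroid series *Jak2* was highest in Ery 5, at 25.3 CPM (19.9 to 31.8) and 14.7 CPM (11.7 to 18.1). In library 1 that interval overlapped those of Ery 4 and Ery 3. In library 2 the intervals from Ery 5 down to Ery 1 overlapped from each to the next. Mk, at 26.0 and 19.7 CPM, and EC, at 22.9 and 28.2 CPM, were among the highest populations, from 6 to 20 UMIs each. In Mk of library 1, 8 of the 20 UMIs fell in a single cell. Without globin UMIs, *Jak2* was at 13.1 and 11.1 non-globin CPM in Ery 1 and at 51.8 and 55.1 in Ery 5. On that scale *Epor* was at 131 and 132 in Ery 1 and at 387 and 435 in Ery 5. Between these 2 subclusters *Jak2* thus did not vary less than *Epor*, and in CPM it did not either. Between HSPC and Ery, *Jak2* still varied less without globin UMIs. The ratio of Ery to HSPC was then 0.40 and 1.44 log2 units for *Jak2*, against 4.09 and 4.29 for *Epor*.

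*Stat5a* and *Stat5b*, which encode the proteins that carry the signal to the nucleus, were highest early in the erythroid series and low in its late stages. *Stat5a* stood at 18.6 and 19.2 CPM in HSPC and was highest in Ery 1, at 31.2 CPM (27.8 to 34.9) and 36.0 CPM (32.2 to 40.0). G came next, at 23.3 CPM (16.9 to 31.2) and 24.8 CPM (18.2 to 33.0), with an interval that overlapped that of Ery 1 in each library. *Stat5a* was at 13.3 and 14.8 CPM in Ery 2, at 1.17 and 2.44 CPM in Ery 3, and at 0.342 and 0.171 CPM in Ery 5, where each library held 1 UMI. Ery 1 exceeded Ery 6 44.4-fold in library 1 (17.2 to 164) and 119-fold in library 2 (40.3 to 579), from 4 and 3 UMIs in Ery 6. The direction was the same on the other scales, with -4.23 and -4.71 log2 units without globin UMIs and -2.94 and -3.45 relative to the median gene.

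*Stat5b* followed more slowly. It was at 21.0 CPM (18.2 to 24.0) and 18.7 CPM (16.1 to 21.7) in Ery 1, 8.84 and 6.35 CPM in Ery 3, 3.27 and 1.91 CPM in Ery 4, and 1.23 and 0.505 CPM in Ery 6. The ratio of Ery 1 to Ery 6 was 17.0 (8.13 to 42.9) in library 1 and 37.1 (15.6 to 116) in library 2. Hepa held the highest *Stat5b* level, at 25.0 and 21.0 CPM, with an interval that overlapped that of Ery 1. In liver the STAT5B protein is known for carrying the growth hormone signal. *Stat5a* and *Stat5b* are close paralogs, so reads may have been split or dropped between them, and the last exon of *Stat5a* overlaps *Stat3*, which lies on the other strand. The sources used here do not say whether counting used strand.

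Receptor, kinase and STAT5 transcripts were seen together in single cells more often in Ery 1 than in the later erythroid subclusters. A UMI of *Epor*, of *Jak2* and of either *Stat5* gene was found in 21.1% of Ery 1 cells of library 1 and 15.0% of library 2. In Ery 2 it was 8.26% and 6.10%, in Ery 3 1.60% and 1.55%, and in Ery 6 0.0821% and 0 of 1176 cells. In Hepa it was 6.06% of 33 cells (0.743 to 20.2) and 12.9% of 31 cells (3.63 to 29.8). These shares were not thinned, and the median UMIs per cell were lower in later cells. With all cells at 3600 UMIs, globin included, the share with a *Stat5a* UMI went from 11.7% in Ery 1 of each library to 0.408% and 0.085% in Ery 6.

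Of the 4 known STAT5 targets in the set, *Cish*, *Socs3* and *Pim1* were higher in Ery 6 than in Ery 1 in CPM. *Socs2* was lower, as were the STAT5 genes. Being lower was the common outcome there: 77.9% of 9197 genes were at least 2-fold lower in both libraries, and 4.64% were higher. *Cish*, which encodes the CIS protein that competes with STAT5 at the receptor, stood at 2.63 CPM (1.72 to 3.86) and 3.55 CPM (2.45 to 4.99) in Ery 1. In Ery 5 it was at 26.7 CPM (21.1 to 33.3) and 12.6 CPM (9.92 to 15.9), and in Ery 6 at 21.8 and 10.7 CPM. Ery 6 exceeded Ery 1 8.27-fold in library 1 (5.39 to 13.2) and 3.01-fold in library 2 (2.02 to 4.60). Per cell the values lay closer together, with 0.0693 and 0.0919 UMIs in Ery 1 and 0.102 and 0.0901 in Ery 6. Mk held *Cish* at 18.2 and 13.8 CPM, and HSPC at 3.77 and 3.52 CPM. The last exon of *Cish* overlaps *Gm17041* on the other strand.

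*Socs3*, which blocks JAK kinases at several cytokine receptors, was low in early progenitors. Ery 1 held 7 UMIs in 375 cells of library 1 and 3 UMIs in 359 cells of library 2, or 0.709 and 0.323 CPM. In Ery 5 it was at 34.6 CPM (28.2 to 42.0) and 18.9 CPM (15.6 to 22.8), and in Ery 6 it was lower again, at 12.6 and 5.96 CPM. The ratio of Ery 6 to Ery 1 was 17.8 in library 1 (8.23 to 46.0) and 18.4 in library 2 (6.01 to 91.9). Per cell the ratio was 1.66 and 2.59 log2 units, whereas that of *Cish* was 0.55 in library 1 and -0.03 in library 2. Outside the erythroid cells, EC held 15.3 and 21.2 CPM, from 4 and 12 UMIs, and Hepa 15.6 and 3.70 CPM, from 10 and 3 UMIs.

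*Socs2*, a brake of growth hormone and other cytokine signals, went against the other feedback genes in CPM. It was at 7.54 and 4.80 CPM in HSPC, 12.2 and 8.96 CPM in Ery 2, 9.62 and 9.53 CPM in Ery 3, 3.08 and 1.88 CPM in Ery 5, and 0.878 and 0.202 CPM in Ery 6. Ery 1 exceeded Ery 6 9.22-fold in library 1 (3.79 to 29.2) and 38.4-fold in library 2 (10.3 to 323), from 5 and 2 UMIs in Ery 6. The median of all genes was also lower in Ery 6, at -2.54 and -3.44 log2 units. Relative to that median gene, *Socs2* stood at -0.67 and -1.82 log2 units and did not pass 2-fold in both libraries. Mk had the highest level in each library, at 18.2 CPM (9.94 to 30.5) and 18.7 CPM (11.3 to 29.3), overlapping the next population. Up to 7 UMIs of *Socs2* fell in a single Mk cell of library 1 and up to 6 in library 2.

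*Pim1*, the survival kinase gene, was lowest at the start of the erythroid path and highest near its end. It stood at 92.2 CPM (82.3 to 103) and 135 CPM (123 to 149) in HSPC, and at 34.7 CPM (31.2 to 38.6) and 45.7 CPM (41.4 to 50.2) in Ery 1. From there it was higher at each subcluster up to Ery 5, at 859 CPM (825 to 893) and 569 CPM (550 to 589), and then 675 and 460 CPM in Ery 6. Ery 6 exceeded Ery 1 19.4-fold in library 1 (17.4 to 21.8) and 10.1-fold in library 2 (9.11 to 11.1). Per cell, it went from 0.915 and 1.18 UMIs in Ery 1 to 5.05 and 5.65 in Ery 5, in cells whose total was several times smaller. Thinned to 3600 UMIs, 90.6% and 80.5% of Ery 5 cells had a *Pim1* UMI, against 11.7% and 13.9% of Ery 1 cells. Mk differed between the libraries, with 204 CPM and 77.9 CPM, and its median cell held 5699 UMIs in library 1 and 16944.5 in library 2.

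Within a subcluster, cells with and without a *Cish* UMI were compared at equal depth. In Ery 4, 44.9% of the 78 cells with a *Cish* UMI in library 1 (33.6 to 56.6) and 51.3% of the 1093 without (48.3 to 54.3) had an *Epor* UMI. In library 2 it was 39.6% of 53 cells (26.5 to 54.0) and 40.0% of 1149 (37.2 to 42.9). The intervals overlapped in each library. For *Pim1*, 80.8% of the Ery 4 cells with a *Cish* UMI in library 1 (70.3 to 88.8) and 75.5% in library 2 (61.7 to 86.2) had a UMI, against 74.6% (71.9 to 77.1) and 64.6% (61.7 to 67.3) of those without, again with intervals that overlapped. In Ery 3 of library 2 they did not: 74.1% of 27 cells with a *Cish* UMI (53.7 to 88.9) and 47.5% of 617 without (43.5 to 51.5) had a *Pim1* UMI. In Ery 3 of library 1 the shares were 57.6% (39.2 to 74.5) and 47.8% (44.0 to 51.6), which overlapped. Over the 6 subclusters, 92 such splits by *Cish* or *Epor* were compared, and the intervals lay apart in that 1 alone. The pair of *Cish* and *Epor* was counted from both sides. Some sides held very few cells, such as the 5 with a *Cish* UMI in Ery 1 of library 2. The count therefore says little on whether the genes vary together. With so few *Cish* UMIs, a difference smaller than these intervals was not detectable at this depth.

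The members were set against all genes in 3 comparisons. A gene was counted where its CPM ratio reached 2-fold the same way in both libraries, among genes with at least 20 UMIs in each library over the compared populations together, and 8 members were counted each time. In Ery over HSPC, 1 member was higher (*Epor*) and 1 lower (*Pim1*), against 6.91% of 10209 genes higher and 18.7% lower. The *Pim1* ratio of HSPC to Ery was 2.03 (1.78 to 2.31) in library 1 and 2.07 (1.85 to 2.32) in library 2, just past the limit. Relative to the median gene, which lay 0.15 and 0.14 log2 units lower in Ery, *Epor* was still higher and no member was lower, against 8.82% and 16.6% of all genes.

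In Eryb over Ery, 3 members were higher (*Cish*, *Socs3* and *Pim1*), against 4.83% of 10073 genes, and 2 were lower (*Stat5a* and *Stat5b*), against 54.5%. The median of all genes lay at -1.15 log2 units in library 1 and -1.73 in library 2. The median of the members was 0.45 and -0.14. Relative to the median gene, 5 members were higher (also *Epor* and *Jak2*), against 20.9% of all genes, and *Stat5a* alone was lower, against 20.7%.

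The widest span was Ery 6 over Ery 1. There 3 members were higher (*Cish*, *Socs3* and *Pim1*), against 4.64% of 9197 genes, and 3 were lower (*Stat5a*, *Stat5b* and *Socs2*), against 77.9%. The median of all genes lay at -2.54 and -3.44 log2 units, and that of the members at -0.31 and -1.14. Without globin UMIs the median of all genes was still below 0, at -1.30 and -1.26, and that of the members was 0.93 and 1.04. Relative to the median gene 5 members were higher, *Epor* by 1.73 and 1.82 log2 units and *Jak2* by 2.72 and 2.78 in addition, against 27.2% of all genes. *Stat5a* and *Stat5b* remained the lower members on that scale, against 25.6%. Per cell, where the median gene lay at -5.03 and -5.06 log2 units, *Socs3* and *Pim1* were still above 0, and *Epor* stood at -3.30 and -3.23 and *Jak2* at -2.31 and -2.28. Since the members were chosen with earlier results of these data known, these counts describe the set and test nothing about it.

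**Figure D3:**
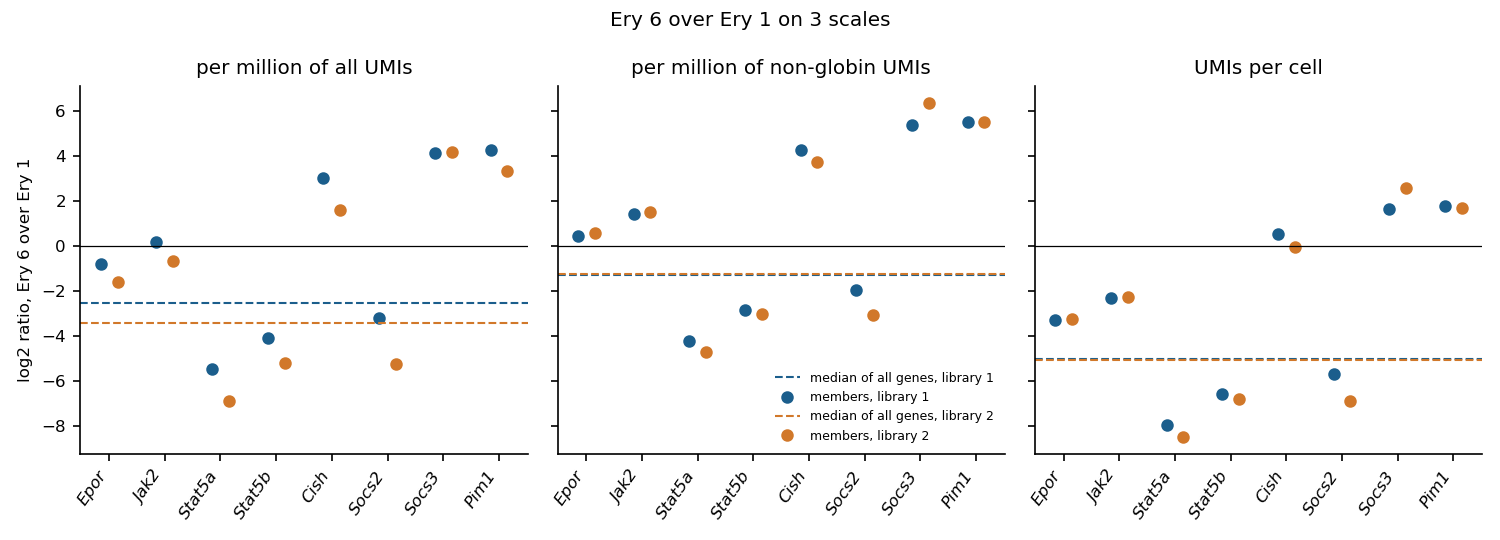
Ratio of Ery 6 to Ery 1 in log2 units for the 8 members with UMIs in each library (points) on 3 scales, with the median of all genes of each library as a dashed line. *Socs3* and *Pim1* lie above 0 on each scale, *Epor* and *Jak2* change side with the scale but lie above the median of all genes in each, and *Stat5a* and *Stat5b* lie below that median throughout.

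The members were also followed along the gain of globin, without the cluster borders. Ery and Eryb cells of each library were put in order of their adult globin share and divided into 10 groups of 475 or 476 cells in library 1 and 443 cells in library 2. The median globin share went from 0.787% to 63.5% in library 1 and from 0.947% to 83.3% in library 2. In non-globin CPM, *Stat5a* was at 30.8 and 34.0 in the first group and at 1.38 and 1.24 in the fourth, when *Pim1* was at 367 and 532 after 31.7 and 34.8 in the first. *Epor* was highest in the seventh group of each library, at 371 and 377, after 136 and 145 in the first, and stood at 152 and 133 in the last. *Cish* was highest in the eighth group, at 60.0 and 58.1, and so was *Socs3*, at 52.0 and 61.0. For *Epor*, *Cish* and *Socs3*, the interval of the highest group overlapped that of the group before it in each library. The eighth group had a median globin share of 51.0% in library 1 and 74.2% in library 2, so equal group numbers were not equal globin shares. *Socs2* was at 12.7 and 9.17 in the sixth group and at 1.38 and 0 in the last. The groups share the cells and counts used for the clusters, and the globin share itself is among the things that order them.

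**Figure D4:**
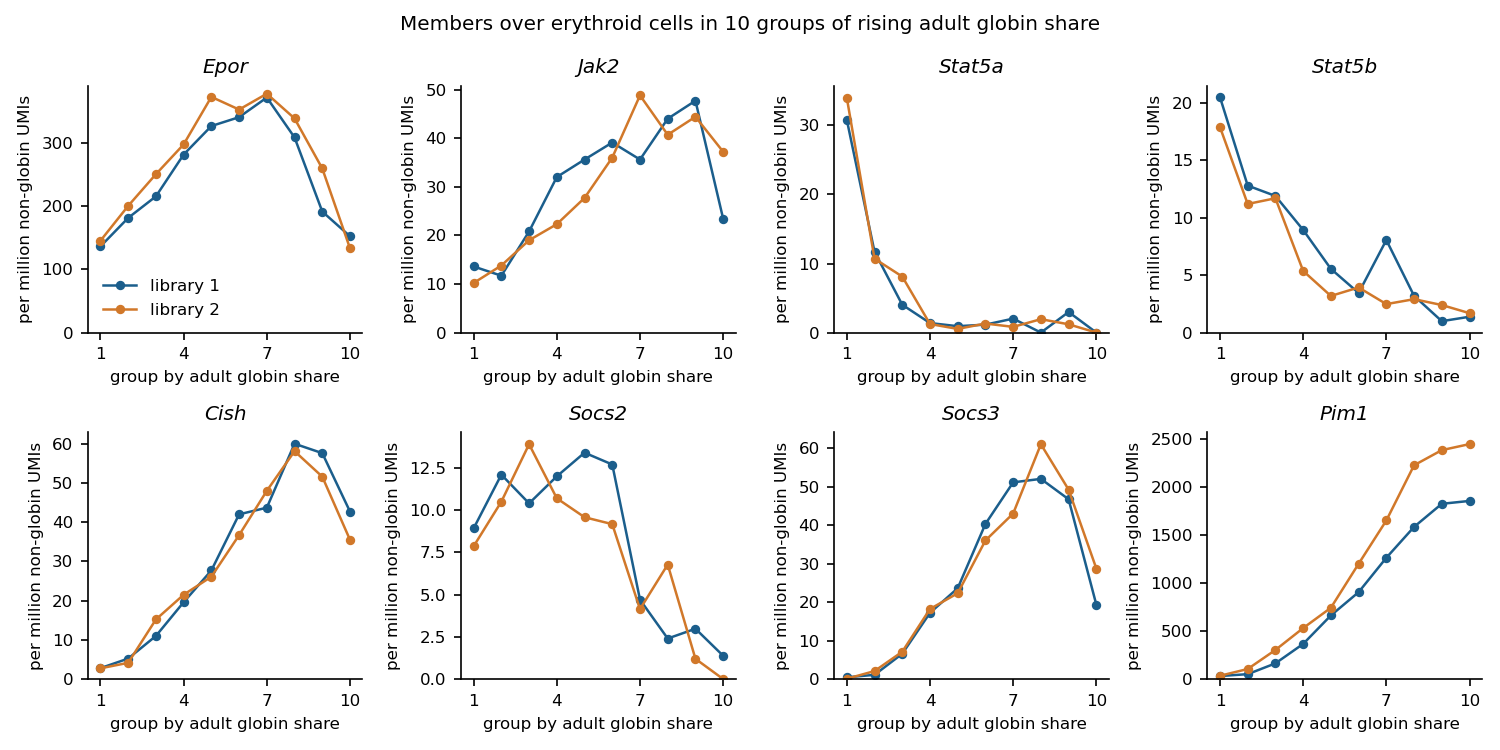
Level of the 8 members, in non-globin CPM on linear axes, in 10 groups of Ery and Eryb cells ordered by adult globin share within each library. *Stat5a* and *Stat5b* are highest in the first group, *Epor* in the seventh, *Cish* and *Socs3* in the eighth, and *Pim1* in the last. For *Epor*, *Cish*, *Socs3* and *Pim1*, the interval of the highest group overlaps that of the group before it.

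Other genes of the pathway, 55 in all, were counted in groups. Of 16 kinases, adaptors and STATs, all with enough UMIs, 12 were lower and 1 was higher in Ery 6 than in Ery 1, and of 11 brakes, 8 were counted and 7 were lower, against the 77.9% lower among all genes. The higher one was *Pik3r1*, a regulatory subunit of PI3-kinase, at 19.2 and 15.9 CPM in Ery 1 and 135 and 63.3 CPM in Ery 6. Relative to the median gene, 4 of the 16 and 2 of the 8 brakes counted were higher and 4 of each were lower, against 27.2% and 25.6% of all genes. *Tyk2*, a JAK-family kinase, had 0 UMIs in Ery 6 of library 1, and *Gab2*, an adaptor, had 0 in both libraries, after 3.65 and 3.55 CPM in Ery 1.

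Of 21 targets and effectors, 17 were counted in that comparison, with 4 higher and 7 lower, against 4.64% and 77.9% of all genes. Relative to the median gene 11 were higher and 3 lower, against 27.2% and 25.6%. Those with the largest ratios were *Bcl2l1*, which encodes the survival protein BCL-XL, at 14.9 and 17.6 CPM in Ery 1 and 454 and 256 CPM in Ery 6, and *Foxo3*, a transcription factor of the stress response, at 22.7 and 25.4 CPM and 182 and 97.7 CPM. *Bcl2l1* was thus 4.93 and 3.87 log2 units higher. *Pim3*, a relative of *Pim1*, moved the other way, from 21.2 and 18.3 CPM to 0.878 and 0.101 CPM. *Podxl*, a cell surface sialomucin gene, went from 21.6 and 21.3 CPM to 0.527 and 0.202 CPM, and *Ccnd2*, a cyclin gene, from 92.4 and 91.1 CPM to 1.93 and 1.01 CPM. In Eryb over Ery, 4 of 46 listed genes counted were higher and 24 lower, against 4.83% and 54.5% of all genes. *Bcl2l1*, *Pik3r1* and *Foxo3* had the largest ratios upwards, with *Tfrc*, the transferrin receptor gene, as the fourth at 128 and 117 CPM in Ery and 483 and 285 CPM in Eryb.

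Among the largest ratios downwards from Ery to Eryb were those of *Kit*, a cytokine receptor gene of early progenitors, and *Ptpn6*, which encodes a phosphatase that shuts off the erythropoietin receptor. *Kit* went from 19.5 and 19.0 CPM to 1.03 and 0.564 CPM, and *Ptpn6* from 32.8 and 30.6 CPM to 2.51 and 0.902 CPM. In Ery over HSPC, 7 of 49 listed genes were higher and 24 lower, against 6.91% and 18.7% of all genes. *Podxl* led the higher ones, at 2.61 and 1.28 CPM in HSPC and 19.1 and 17.6 CPM in Ery, followed by *Tfrc*, from 25.2 and 23.7 CPM to 128 and 117 CPM, and *Gfi1b*, an erythroid repressor, from 29.0 and 24.3 CPM to 111 and 99.7 CPM. *Fam132b*, the gene of the hormone erythroferrone, had 0 UMIs in HSPC of library 1 and was at 3.41 CPM in Ery. *Csf2rb*, the shared receptor chain of several cytokines, was at 14.8 and 14.7 CPM in HSPC and at 0.472 and 0.945 CPM in Ery. *Serpina3g* and *Dusp6*, the other genes with the largest ratios downwards, were at 31.0 and 44.2 CPM and at 11.9 and 13.1 CPM in HSPC, and at 1.10 and 0.556 CPM and 0.420 and 0.389 CPM in Ery.

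Genes with the profile most like that of a member were sought among 7944 genes with at least 200 UMIs in each library, by the lower of the 2 libraries' correlations of log2(CPM + 10) over the 13 populations. For *Epor* they were *Gata1* (0.925), *Lmna* (0.916), *Smim1* (0.914), *Samd14* (0.911) and *Ssx2ip* (0.904). *Gata1* encodes the transcription factor that defines the erythroid and megakaryocyte lines. For *Pim1* they were *Ppp1r15a* (0.926), *Hbq1b* (0.910), *Ptp4a3* (0.901), *Zfand6* (0.889) and *Stradb* (0.888). *Cish* was most like *Gm15800* (0.899), *Rnf19a* (0.870), *Lrrc29* (0.860), *Kif2a* (0.858) and *Cit* (0.830), and *Socs2* most like *Lrrc8c* (0.813), *St3gal6* (0.805), *Exoc6* (0.789), *Taf9b* (0.778) and *Inafm2* (0.768).

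The 13 points of a library share its depth, its globin background and its free RNA, and the search ran over all 7944 genes, so the likeness is a description with no test. By Spearman's rho, 2 of the 5 genes were shared for *Epor*, 2 for *Cish*, 3 for *Socs2* and 2 for *Pim1*, and *Gata1* was not among the 5 for *Epor*. With a pseudocount of 1 CPM, 4, 3, 2 and 4 were shared.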

How the data were processed

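For each library the authors deposited a matrix of raw counts (UMIs by gene and barcode), and for the series a table that gives each kept cell its cluster and cell type. The submitters' processing notes name bcl2fastq 2, Cell Ranger 2.1.1, Seurat 3.2.0 and mm10, and the header of 1 matrix names software version 3.0.0. The methods of the study state that cells with fewer than 200 genes were removed. Whether counting used strand is not given in the sources used here.

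From these counts, UMIs were summed per population and library and divided by the population's total. Intervals are 95%, exact Poisson for levels, Clopper-Pearson for shares and conditional binomial for ratios. They cover counting error only. With 1 liver and technical replicates there was no test. Cells were thinned to 3600 UMIs, globin included (seed 1), for shares, and limits for a count of 0 use 3 counts. No doublet caller was run. The study removed doublets by sorting before the cells entered droplets, so droplets that took in several cells were not looked for. Free RNA was taken from barcodes with 1 to 50 UMIs. No column of per-sample values was left unmapped.

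The members, the gene lists and the rules were chosen with earlier results of these data known. Pathway genes were named as the 3 with the largest mean log2 ratio in each direction among those past 2-fold in both libraries, with those at 0 UMIs in a population named beside them, and like genes as the 5 with the highest lower correlation. *Tfrc* in Eryb was named after its values were seen. Some genes of the lists are not reported here by name. Scripts ran on Python 3.11.15, numpy 2.4.6, scipy 1.17.1, pandas 2.3.3 and matplotlib 3.10.9 and were tested on simulated data.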

Additional observations from a re-analysis of the deposited data

How the results depend on the processing

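The scale decided the direction for *Epor*, whose mean log2 ratio of Eryb to Ery was -0.07 in CPM, 0.85 without globin UMIs, -1.50 per cell and 1.37 relative to the median gene. For Ery 6 over Ery 1 it was -1.21 in CPM, 0.50 without globin, -3.27 per cell, -0.38 with the stricter cell filter and 1.78 relative to the median gene. For Ery over HSPC it was 4.17 in CPM, 4.62 per cell, 4.41 without the top 4% of cells by UMIs and 4.32 relative to the median gene. The *Epor* level in Ery was 158 without globin, 153 with the stricter filter, 151 without the top cells and 158 with free RNA subtracted. The share of Ery cells with an *Epor* UMI was 78.9% without thinning, 62.0% at 7200 UMIs and 10.2% for at least 2 UMIs. Members higher numbered 5 relative to the median gene in Eryb over Ery and in Ery 6 over Ery 1. Members lower numbered 4 per cell and 1 relative to the median gene in Eryb over Ery, and 5 per cell in Ery 6 over Ery 1. In Ery over HSPC, leaving out a library gave 1 to 2 members higher and 1 to 2 lower, and members lower numbered 0 per cell, without the top cells, relative to the median gene and at 3-fold, and 2 with free RNA subtracted, with the libraries summed and at 1.5-fold. The other 90 of these values moved by less than the limits set for them, but counts among them could still differ. Without globin UMIs 4 members were higher in Eryb over Ery, with *Jak2* added, against 3 in CPM. Without library 1, 3 members were lower there, against 2. Of further values checked in the same way, 106 moved and 282 did not. The sign of the *Epor* ratio of Eryb to Ery also turned with the stricter cell filter, to 0.18, and between the libraries, -0.33 without library 1 and 0.19 without library 2. No paired analysis was possible because all cells came from 1 liver and no groups of samples were compared. The cause of these shifts was not tested.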
